A study of Mus musculus with 15 samples.

Results

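Bulk RNA-sequencing of cultured bone marrow mesenchymal stromal cells (MSCs) was read for 10 genes that hold the cell cycle back or mark cellular senescence. The genes were taken by symbol from the 56832 genes of the count table. They are the CDK inhibitors *Cdkn1a*, *Cdkn1b*, *Cdkn2a*, *Cdkn2b*, *Cdkn2c* and *Cdkn2d*, the p53 gene *Trp53* with its inhibitor *Mdm2*, the lamin gene *Lmnb1* and the retinoblastoma gene *Rb1*. All 10 were found and all 10 passed edgeR's filter on low counts, which left 17204 genes to test. The 15 libraries came from 16 week old mice of C57BL/6J background and carried a genotype and a sex label. Of the male-labelled libraries 4 were TauT+/+ and 4 TauT-/-, and of the female-labelled ones 3 were TauT+/+ and 4 TauT-/-. TauT-/- mice lack the taurine transporter TauT, encoded by *Slc6a6*, in every cell, and TauT+/+ mice were the controls. Cells of both genotypes were grown from bone marrow in 2% O2 without ascorbic acid and enriched as CD45-Ter119-CD31- cells, so each library is a culture and not cells fresh from bone. The labels do not say that every library came from a separate mouse, and p-values then measure the spread between these libraries. The comparison of the genotypes asks whether transcripts of these regulators differ in MSCs of mice that lack this transporter, in which the study also stained for senescence-associated β-galactosidase.

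Senescence is a lasting arrest of the cell cycle. It is held by a pair of arms, the p53 arm, in which p53 turns on *Cdkn1a*, and the Ink4 arm, in which the products of the *Cdkn2* genes bind CDK4 and CDK6. Both keep the retinoblastoma protein in its active form, which holds E2F factors off the genes of S phase. Loss of lamin B1, a protein of the nuclear lamina, and enlarged lysosomes with β-galactosidase activity are commonly used signs of senescent cells, including MSCs that have been cultured for long.

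Levels are CPM, counts per 1000000 of the library size scaled by edgeR's TMM method, and ± gives the SD over the 7 TauT+/+ or the 8 TauT-/- libraries. Total counts ranged from 69764291 to 101575071 in male-labelled and from 12761107 to 20781070 in female-labelled libraries, so depth and labelled sex cannot be told apart, while each depth held both genotypes. The fewest counts behind a value given here for the 10 genes were 80, for *Cdkn2c* in TauT-/- female 4, and the most were 45604, for *Cdkn1a* in TauT-/- male 3. *Slc6a6* itself had 1857, 2591, 829.8 and 592 CPM in the TauT+/+ male-labelled libraries, 1712, 2127 and 1289 in the TauT+/+ female-labelled ones, 404, 1251, 537 and 844 in the TauT-/- male-labelled ones and 401, 723, 771 and 1521 in the TauT-/- female-labelled ones. Its genotypes overlapped (log2 fold change −0.97, SE 0.36, adjusted p = 0.125 by edgeR), so the transcript does not check the labels and all libraries are named as labelled. *Xist*, expressed from the inactive X chromosome, and the Y-linked *Ddx3y* went against the sex label in TauT+/+ male 1, TauT-/- male 1 and TauT+/+ female 3. TauT-/- male 1 and female 1 were nearly identical in counts, with a spread of log2 count ratios (scaled median absolute deviation over genes) of 0.104 where counting alone gives 0.060. TauT+/+ male 1 and female 1 were similarly close (0.115 and 0.063), and the next closest pair had 0.289. Results were therefore also computed from 13 libraries, without the male-labelled or without the female-labelled member of both pairs, and these values are given where a call or a direction turns on them. TauT-/- female 4 stood apart from the rest, with the lowest mean of the proliferation genes, the lowest stromal and the highest macrophage markers, and its values are named where they carry a result.

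None of the 10 genes differed between TauT-/- and TauT+/+ MSCs past an adjusted p of 0.05 in edgeR's quasi-likelihood test with labelled sex in the model. In that test 1.3% of all genes were called, 0.546% higher and 0.75% lower in TauT-/- MSCs. The log2 fold change was above 0 for 5 of the 10 genes and below 0 for 5, with a median of 0.035 beside −0.015 over all genes tested. DESeq2 called 1 of the 10, *Cdkn2d*, and 11.6% of all genes, and limma's voom called 1, *Cdkn1b*, and 7.67% of all genes. Both 13-library edgeR fits called 0, with medians of −0.0095 and 0.028. In the test on 15 libraries an unadjusted p under 0.05 was reached by *Cdkn1b*, which was lower, and by *Cdkn2d*, which was higher, and by 23.6% of all genes. The levels of both genotypes overlapped for all 10 genes, over all libraries and within each sex label. Of all genes tested, 0.692% had all TauT-/- libraries above all TauT+/+ ones and 0.436% had them below. Under the male label these shares were 2.24% and 2.12%, and under the female label 6.29% and 8.2%. The intervals still leave room for changes in some of these genes and little in others. The 95% interval of the fold was 0.807 to 1.22 for *Trp53* and 0.504 to 2.21 for *Cdkn2b*. Intervals here are unadjusted and come from the same edgeR fit.

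**Figure D1:**
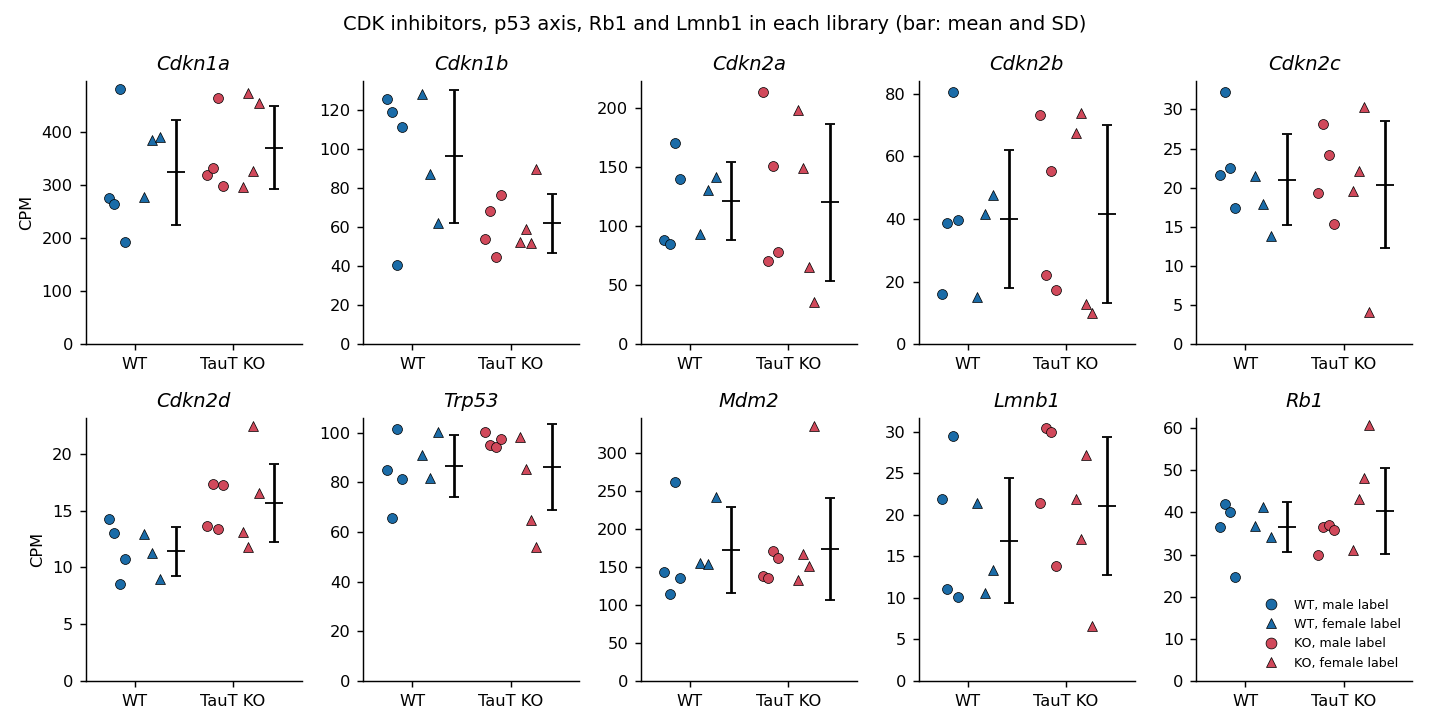
CPM of each of the 10 genes in each library, TauT+/+ (WT) in blue and TauT-/- (TauT KO) in red, circles for male-labelled and triangles for female-labelled libraries, with the mean and SD of each genotype as a bar. The genotypes overlap in every panel, and TauT-/- female 4 is the lowest point for *Cdkn2a*, *Cdkn2b*, *Cdkn2c*, *Trp53* and *Lmnb1* and the highest for *Mdm2* and *Rb1*.

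The genes differed widely in level. Per kilobase of the canonical transcript, *Cdkn1a* had 169 ± 51.3 CPM in TauT+/+ MSCs and *Cdkn2a* had 142 ± 38.4, which lie within their spread of each other. *Mdm2* (55.6 ± 18.2) and *Trp53* (46.8 ± 6.69) followed, again within their spread. *Cdkn1b* (21.1 ± 7.48) and *Cdkn2b* (14.7 ± 8.07) came next and did not differ beyond their spread either. The lowest were *Cdkn2c* (7.79 ± 2.15), *Cdkn2d* (7.36 ± 1.39), *Rb1* (7.28 ± 1.19) and *Lmnb1* (5.38 ± 2.39), which overlapped one another. The genes also differed in how much they varied. The SD of log2 CPM over the 15 libraries was 0.27 for *Trp53* and 0.30 for *Rb1*, and 1.03 for *Cdkn2b*, where the median over all genes tested was 0.52. The highest library had 8.13 times the CPM of the lowest for *Cdkn2b*, 7.73 times for *Cdkn2c* and 6.05 times for *Cdkn2a*, beside 1.88 times for *Trp53*. The lowest library was TauT-/- female 4 for all 4, and without it these ratios were 6.20, 2.32, 3.28 and 1.57.

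*Cdkn1a* encodes p21, which binds CDK2 complexes and is the best known gene that p53 turns on to stop the cell cycle. It lies on chromosome 17 from 29309936 to 29319701 of GRCm39. The letters of a full p53 site, a pair of adjacent half-sites, were searched within 5000 bases of the start of the canonical transcript, allowing 1 letter off outside the cores. They were found near 272 of 21722 start sites (1.3%), among them those of *Cdkn1a* and *Cdkn2b* and of none of the other genes searched, which did not include *Lmnb1*. The matches are shown because they are the only ones near the genes searched and *Cdkn1a* is the textbook target of p53, with the 4-base core of each half-site in capitals. In *Cdkn1a*, the match is at chr17:29309902-29309921, 2836 bases before the canonical start, in an exon of the non-coding gene *Gm64878*. In *Cdkn2b*, the match is at chr4:89226637-89226656, read on the minus strand, 2620 bases after the start, in an intron.
Cdkn1a: gaaCATGtcttgaCATGttc
Cdkn2b: agaCATGtccggtCTTGctc
These are matches of letters in the reference genome, and binding was not measured.

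In TauT+/+ MSCs, *Cdkn1a* had 277, 264, 482 and 193 CPM in male-labelled libraries 1 to 4 and 278, 385 and 391 CPM in female-labelled libraries 1 to 3. In TauT-/- MSCs it had 319, 333, 464 and 299 CPM in male-labelled and 298, 475, 326 and 455 CPM in female-labelled libraries 1 to 4. The highest value of all was in TauT+/+ male 3 and the lowest in TauT+/+ male 4, so the TauT-/- values fall inside the range of the controls. The means were 324 ± 98.6 CPM (SD, n = 7) and 371 ± 78.6 CPM (SD, n = 8), which gave a log2 fold change of 0.18 (SE 0.19, adjusted p = 0.581 by edgeR) with a 95% interval from −0.22 to 0.59. The interval reaches 1.51 times the control level, and with 1 library left out the log2 fold change ran from 0.097, without TauT+/+ male 4, to 0.34, without TauT+/+ male 3. With the mean of the macrophage markers in the model, the log2 fold change was −0.066 (adjusted p = 0.949). That mean itself went with genotype, so such a fit cannot tell them apart.

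*Cdkn1b*, on chromosome 6 from 134897364 to 134902476, encodes p27, a relative of p21 that holds resting cells out of the cycle. It had 126, 119, 40.7 and 111 CPM in TauT+/+ male-labelled libraries 1 to 4 and 128, 87.2 and 61.9 CPM in TauT+/+ female-labelled libraries 1 to 3. TauT-/- libraries had 54.1, 68.02, 44.5 and 76.6 CPM under the male and 52.2, 59.1, 52.03 and 89.9 CPM under the female label. TauT+/+ libraries male 1, 2 and 4 and female 1 were above every TauT-/- library, while TauT+/+ male 3 had the lowest value of all 15. Male 1 and female 1 of these are a near-identical pair. The means were 96.2 ± 34.1 CPM and 62.03 ± 15.1 CPM, with a log2 fold change of −0.63 (SE 0.24, adjusted p = 0.131 by edgeR) with a 95% interval from −1.14 to −0.12. It was −0.71 in male-labelled and −0.55 in female-labelled libraries, and the difference between the labels was 0.16 (edgeR adjusted p = 1.00). Without TauT+/+ male 3 the log2 fold change was −0.76 (edgeR adjusted p = 0.0344), and voom gave −0.70 (adjusted p = 0.0479), both past the threshold. The fit without TauT+/+ male 3 called 779 genes lower and 476 higher of 15966, and voom called 7.67% of all genes. From 13 libraries edgeR gave −0.54 without the male-labelled members of the near-identical pairs and −0.47 without the female-labelled ones (adjusted p = 0.244 and 0.335).

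*Cdkn2a* and *Cdkn2b* lie side by side on chromosome 4, from 89192708 to 89212890 and from 89223204 to 89229276, and encode the CDK4 and CDK6 inhibitors p16 and p15. *Cdkn2a* also encodes Arf, which binds Mdm2 and so releases p53, and a count per gene adds p16 and Arf transcripts together. Neither gene passed the threshold, and both had log2 fold changes near 0 with wide intervals. *Cdkn2a* had 88.1, 85.1, 171 and 139 CPM in TauT+/+ male-labelled and 93.4, 130.1 and 141 in TauT+/+ female-labelled libraries, against 214, 70.2, 150.5 and 78.1 in TauT-/- male-labelled and 198, 149, 65.2 and 35.3 in TauT-/- female-labelled ones. TauT-/- libraries reached both above and below the range of the controls, with the highest value in male 1 and the lowest in female 4. *Cdkn2a* had a log2 fold change of −0.0085 (SE 0.34, adjusted p = 0.991 by edgeR), with a 95% interval of the fold from 0.597 to 1.65, and the log2 fold change was −0.27 and −0.19 in the 13-library fits.

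*Cdkn2b* had 16.02, 38.8, 80.5 and 39.5 CPM in TauT+/+ male-labelled and 15.2, 41.7 and 47.6 in TauT+/+ female-labelled libraries. In TauT-/- libraries it had 73.2, 22.1, 55.3 and 17.4 CPM under the male and 67.6, 73.9, 12.99 and 9.90 CPM under the female label. TauT-/- male 1 and 3 and female 1 and 2 had 55.3 CPM or more and the other 4 had 22.1 CPM or less, and the former 4 were also the highest TauT-/- libraries for *Cdkn2a*. Of these, male 1 and female 1 are a near-identical pair and may not be separate cultures. Its log2 fold change was 0.078 (SE 0.50, adjusted p = 0.944 by edgeR), and it was −0.24 and −0.19 in the 13-library fits, on the other side of 0.

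Across libraries, *Cdkn2a* and *Cdkn2b* rose and fell together. Pearson's r was 0.91 and Spearman's rho 0.93 (permutation p adjusted over 5 relations = 0.0003 and 0.0001, n = 13 libraries), and without the 2 libraries farthest from the median of *Cdkn2b* r was 0.85. Within labels, r was 0.89 among the 6 male-labelled libraries (exact permutation p = 0.00833) and 0.92 among the 7 female-labelled ones (exact permutation p = 0.00159). The points share library and depth, and the near-identical male-labelled libraries were left out of them. *Cdkn2b* is overlapped on the other strand by the non-coding gene *Gm12610*, *Cdkn1a* by *Gm64878* and *Dino*, and the start of *Trp53* by *Wrap53*. Reads were counted by strand in the study's processing, but the sources used here do not say that the library kit keeps the strand, so reads of these overlapping genes may not be separated.

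*Cdkn2c* and *Cdkn2d* encode p18 and p19, the other inhibitors of CDK4 and CDK6, and lie on chromosome 4 from 109517957 to 109524386 and on chromosome 9 from 21199700 to 21202727. *Cdkn2c* ranged over 13.9 to 32.2 CPM (median 21.5) in TauT+/+ and over 4.17 to 30.3 CPM (median 20.9) in TauT-/- libraries. Its low end was TauT-/- female 4 alone, since the next lowest TauT-/- library had 15.4 CPM. The log2 fold change of *Cdkn2c* was −0.014 (SE 0.30, adjusted p = 0.985 by edgeR), and −0.0019 and 0.043 in the 13-library fits.

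*Cdkn2d* had 14.3, 13.02, 8.55 and 10.8 CPM in TauT+/+ male-labelled and 12.99, 11.3 and 9.03 in TauT+/+ female-labelled libraries. It had 13.7, 17.3, 13.4 and 17.3 CPM in TauT-/- male-labelled and 13.1, 11.8, 22.5 and 16.5 in TauT-/- female-labelled libraries. TauT-/- male 2 and 4 and female 3 and 4 were above every TauT+/+ library, and the others lay above the control median of 11.3 CPM. Means were 11.4 ± 2.15 CPM and 15.7 ± 3.45 CPM, a log2 fold change of 0.46 (SE 0.16, adjusted p = 0.114 by edgeR) with a 95% interval from 0.11 to 0.80. The change was 0.40 under the male and 0.53 under the female label. DESeq2 put *Cdkn2d* just past the threshold (0.47, adjusted p = 0.0493), in a test that called 11.6% of all genes. The 13-library edgeR fits gave 0.54 and 0.55 (adjusted p = 0.112 and 0.147).

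E2F factors, which the retinoblastoma protein restrains, bind short GC-rich letters near the start of genes. The letters TTTCGCGC, TTTGGCGC, TTTCCCGC and TTTGCCGC were searched on both strands in the 250 bases before each canonical start. They were present before 496 of 21722 genes (2.3%), and of the same genes before *Cdkn2d* and *Rb1*. The windows are shown because they are the only ones of the genes searched that hold these letters, with the matched letters in capitals and both read on the minus strand of GRCm39. The *Cdkn2d* window is chr9:21202728-21202977, with the match 134 bases before the start, and overlaps an exon of *Gm69763*. The *Rb1* window is chr14:73563508-73563757, with the match 214 bases before the start, and overlaps no annotated feature.
Cdkn2d: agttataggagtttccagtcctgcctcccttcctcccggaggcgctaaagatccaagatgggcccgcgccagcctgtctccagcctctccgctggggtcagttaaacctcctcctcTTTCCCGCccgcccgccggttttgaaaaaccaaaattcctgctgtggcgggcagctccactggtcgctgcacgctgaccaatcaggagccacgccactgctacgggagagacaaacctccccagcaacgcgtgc
Rb1: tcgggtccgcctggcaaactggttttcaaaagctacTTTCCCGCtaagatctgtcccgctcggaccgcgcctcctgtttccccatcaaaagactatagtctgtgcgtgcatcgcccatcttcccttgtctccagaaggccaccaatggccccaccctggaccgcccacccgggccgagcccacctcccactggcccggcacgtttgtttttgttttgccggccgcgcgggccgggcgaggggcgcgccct
The matched letters are the same in both windows, TTTCCCGC, and nothing about a factor's binding was measured.

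*Trp53*, on chromosome 11 from 69469669 to 69482701, was the steadiest of the 10 genes. It had 84.8, 65.8, 102 and 81.4 CPM in TauT+/+ male-labelled and 90.9, 81.8 and 100.4 in TauT+/+ female-labelled libraries, and 100.4, 95.2, 94.1 and 97.4 in TauT-/- male-labelled and 98.2, 85.4, 64.8 and 54.01 in TauT-/- female-labelled ones. The 4 TauT-/- male-labelled libraries lay within a few CPM of each other, and the lowest values were in TauT-/- female 3 and 4. Between the genotypes the log2 fold change was −0.0088 (SE 0.14, adjusted p = 0.979 by edgeR), with a 95% interval of the fold from 0.807 to 1.22, and the 13-library fits gave −0.059 and 0.0023. It was 0.21 under the male and −0.27 under the female label, and the difference of −0.48 between them did not pass the threshold (edgeR adjusted p = 1.00). In edgeR no gene passed it in any of the male, female and difference contrasts (0% called), while 8.62%, 14.6% and 1.41% of all genes had an unadjusted p under 0.05 in them, in that order. DESeq2 called 76, 410 and 2 genes in these contrasts and none of the 10.

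*Mdm2*, on chromosome 10 from 117524780 to 117546730, encodes the ligase that marks p53 for breakdown and is itself turned on by p53. It ranged over 115 to 262 CPM (median 154) in TauT+/+ libraries, with TauT+/+ male 3 and female 3 at the top. TauT-/- libraries ranged over 133 to 335 CPM (median 156), and without female 4, at the top, the highest had 171 CPM. The log2 fold change was −0.017 (SE 0.22, adjusted p = 0.974 by edgeR), and −0.19 without TauT-/- female 4 (adjusted p = 0.551). The 13-library fits gave −0.017 and 0.012. *Mdm2* went with *Cdkn1a* across libraries. Pearson's r was 0.67 and Spearman's rho 0.77 (permutation p adjusted over 5 relations = 0.0110 and 0.00550, n = 13 libraries), and without the 2 libraries farthest from the median of *Cdkn1a* r was 0.64. Within labels, r was 0.74 among the 6 male-labelled libraries (exact permutation p = 0.0778) and 0.62 among the 7 female-labelled ones (exact permutation p = 0.139), so it did not pass 0.05 within either label.

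The signs of the other targets of p53 were mixed between the genotypes, while those with an unadjusted p under 0.05 were all lower. Of 29 target genes tested, 14 had a log2 fold change above 0 and 15 below, with a median of −0.0089. Over all 17204 genes tested by edgeR, 2236 were lower and 1830 higher at an unadjusted p under 0.05. DESeq2 called 1139 of 18045 genes lower and voom 708 of 17204. Of the 29 targets edgeR called 0, DESeq2 called 2 lower and voom 3 lower. At an unadjusted p under 0.05 edgeR had 6 targets lower and 0 higher. Those with the smallest p were *Btg2*, a brake on proliferation, *Perp*, a membrane protein of apoptosis, and *Xpc*, a sensor of DNA damage. *Btg2* ranged over 59.96 to 563 CPM in TauT+/+ and 54.6 to 154 CPM in TauT-/- libraries (log2 fold change −1.54, SE 0.39, adjusted p = 0.0613 by edgeR). Its highest control values, 563 and 555.6 CPM, were in the near-identical TauT+/+ male 1 and female 1. In the 13-library edgeR fits its adjusted p was 0.107 and 0.137. *Perp* was near 0 in all libraries, at most 1.15 CPM (log2 fold change −2.48, adjusted p = 0.0799), and *Xpc* had a log2 fold change of −0.60 (adjusted p = 0.102). Across libraries *Cdkn1a* went with the mean log2 CPM of the 29 targets. Pearson's r was 0.58 and Spearman's rho 0.61 (permutation p adjusted over 5 relations = 0.0357 and 0.0372, n = 13 libraries), and without the 2 farthest libraries r was 0.49. It rested partly on single libraries, with r = 0.495 (permutation p adjusted = 0.101) without TauT+/+ male 3, r = 0.57 (permutation p adjusted = 0.0534) without TauT-/- male 4 and r = 0.56 (permutation p adjusted = 0.0583) without TauT+/+ male 4. Within labels, r was 0.66 among the 6 male-labelled libraries (exact permutation p = 0.169) and 0.49 among the 7 female-labelled ones (exact permutation p = 0.268). After centring on the mean of each group of genotype and sex label, r was 0.88 and rho 0.86 (n = 13 libraries). Without the 2 farthest libraries the centred r was 0.81.

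Among 14 tested regulators and relatives of p53, 10 were above and 4 below 0 and edgeR called 0. At an unadjusted p under 0.05, 2 were higher and 2 lower, beside 23.6% of all genes in either direction. DESeq2 and voom each called 1 higher and 1 lower, beside 11.6% and 7.67% of all genes in either direction. *Cop1*, another ligase for p53, had a log2 fold change of −0.28 (SE 0.072, adjusted p = 0.0634 by edgeR). *Chek2*, a kinase that activates p53 after DNA damage, had 0.35 (adjusted p = 0.0806), and *Mdm4*, the partner of *Mdm2*, had −0.44 (adjusted p = 0.175).

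*Rb1*, on chromosome 14 from 73421113 to 73563507, ranged over 24.6 to 42.1 CPM (median 36.7) in TauT+/+ and 29.9 to 60.7 CPM (median 36.8) in TauT-/- libraries. The low end of the controls was TauT+/+ male 4 and the high end of the TauT-/- libraries was female 4. Its log2 fold change was 0.11 (SE 0.15, adjusted p = 0.678 by edgeR) with a 95% interval from −0.21 to 0.43, and 0.032 without TauT-/- female 4. It was −0.040 under the male and 0.29 under the female label. Of the 12 other pocket proteins and E2F factors tested, 10 were above 0, and edgeR called *E2f2*, an E2F factor that activates genes of S phase, higher. *E2f2* ranged over 1.40 to 8.46 CPM in TauT+/+ and 7.97 to 21.5 CPM in TauT-/- libraries (log2 fold change 1.60, SE 0.36, adjusted p = 0.0455 by edgeR). Its levels overlapped between the genotypes only by TauT+/+ male 3 against TauT-/- male 1. It was called in 2 of the 15 fits that leave out 1 library, those without TauT-/- female 1 and without TauT+/+ male 3 (highest adjusted p = 0.108), and not in the 13-library fits (adjusted p = 0.0752 and 0.0974).

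A list of cyclins and CDKs of the G1 to S step with their regulators was above 0 in 12 of 13 genes, and their median log2 fold change was 0.29, where 48.3% of all genes were above 0. With the macrophage markers in the model the median was 0.11. The list holds 8 cyclins and CDKs, the regulators *Cdc25a*, *Skp2*, *Cks1b* and *Cdkn3*, and *Cdkn1c*, which encodes p57 and is itself a CDK inhibitor. *Cdkn1c*, added here after its values were seen, had 0.765 to 6.06 CPM in TauT+/+ and 0.216 to 23.4 CPM in TauT-/- libraries (log2 fold change 1.10, SE 0.88, adjusted p = 0.467 by edgeR). Of the list, edgeR called 0, with 2 higher and 0 lower at an unadjusted p under 0.05, beside 23.6% of all genes in either direction. DESeq2 and voom each called 1 higher, beside 11.6% and 7.67% of all genes in either direction. *Ccnd3*, a D-type cyclin that CDK4 and CDK6 bind, had 67.5 ± 15.1 CPM and 95.98 ± 22.5 CPM (log2 fold change 0.52, SE 0.13, adjusted p = 0.0619 by edgeR). *Cdkn3*, a phosphatase of CDK2, had a log2 fold change of 0.96 (adjusted p = 0.196), and *Cdk6*, the kinase that Ink4 proteins bind, had 0.51 (adjusted p = 0.221), and 0.056 with the macrophage markers in the model (adjusted p = 0.959).

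Genes of proliferating cells lay above 0 as well, 29 of 30, with a median of 0.52, and 0.32 with the macrophage markers in the model. At an unadjusted p under 0.05, 1 of the 30 was higher and 0 lower, beside 23.6% of all genes in either direction. edgeR called 1, *Pcna*, the sliding clamp of DNA replication, beside 1.3% of all genes. DESeq2 and voom each called 1, beside 11.6% and 7.67% of all genes. *Pcna* had 50.2, 37.8, 51.1 and 35.8 CPM in TauT+/+ male-labelled and 54.4, 47.96 and 49.3 in TauT+/+ female-labelled libraries, and 59.9, 66.6, 61.5 and 78.9 in TauT-/- male-labelled and 64.8, 67.3, 90.7 and 89.7 in TauT-/- female-labelled ones. The lowest TauT-/- library lay above the highest TauT+/+ one (log2 fold change 0.62, SE 0.11, adjusted p = 0.0293 by edgeR), and 0.692% of all genes were higher in this way. It was called in 9 of the 15 fits that leave out 1 library, and the 13-library fits gave an adjusted p of 0.0649 and 0.0941. The mean log2 CPM of the 30 genes ran from 3.33 to 4.96 in TauT+/+ libraries and from 4.03 to 5.13 in TauT-/- libraries other than female 4, which had 1.90. Without that library the median log2 fold change was 0.65.

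*Lmnb1*, on chromosome 18 from 56840590 to 56886496, encodes lamin B1. It had 21.96, 11.1, 29.6 and 10.1 CPM in TauT+/+ male-labelled and 21.5, 10.6 and 13.4 in TauT+/+ female-labelled libraries, and 21.5, 30.5, 30.03 and 13.8 in TauT-/- male-labelled and 21.95, 17.1, 27.2 and 6.62 in TauT-/- female-labelled ones. TauT-/- female 4 was the lowest of all, and the next lowest were TauT+/+ male 4, female 2 and male 2. The means were 16.9 ± 7.51 CPM and 21.1 ± 8.33 CPM, a log2 fold change of 0.34 (SE 0.31, adjusted p = 0.539 by edgeR), with a 95% interval of the fold from 0.793 to 2.01. Over all genes and both directions, 23.6% had an unadjusted p under 0.05, DESeq2 called 11.6% and voom 7.67%. Of 10 other lamina and chromatin genes tested, 6 were above and 4 below 0. edgeR called 0 of the 10, with 2 higher at an unadjusted p under 0.05, and DESeq2 and voom each called 1 higher. Those with the smallest p were *Banf1*, which ties chromatin to the envelope (0.33, adjusted p = 0.0824), *Tmpo*, a lamin-binding protein (0.36, adjusted p = 0.198) and *Sun1*, a protein of the inner nuclear membrane (0.29, adjusted p = 0.372).

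*Lmnb1* followed the proliferation genes closely. Pearson's r was 0.93 and Spearman's rho 0.93 (permutation p adjusted over 5 relations = 0.0001 and 0.0001, n = 13 libraries), where the unadjusted p of 2e-05 is the smallest that 100000 resamples can give. Without the 2 libraries farthest from the median of the proliferation mean r was 0.94, and within labels r was 0.99 among the 6 male-labelled libraries (exact permutation p = 0.00833) and 0.92 among the 7 female-labelled ones (exact permutation p = 0.00436). *Cdkn2c* gave r = 0.79 and rho = 0.59 with the same mean (permutation p adjusted over 5 relations = 0.0168 and 0.0372, n = 13 libraries). This relation turned on single libraries. Without TauT-/- female 4, r was 0.41 (permutation p adjusted = 0.179), and 0.29 without both farthest libraries. Without TauT+/+ male 2, r was 0.92 (permutation p adjusted = 0.00100), and 0.81 when TauT-/- female 4 and TauT+/+ male 4 were left out as well. Within labels, r was 0.26 among the 6 male-labelled libraries (exact permutation p = 0.569) and 0.96 among the 7 female-labelled ones (exact permutation p = 0.0151). After centring on the mean of each group of genotype and sex label, r was 0.85 and rho 0.66. The centred r was 0.43 without the 2 farthest libraries. The libraries share their depth within a label, and *Lmnb1* had between 127 and 2950 counts.

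**Figure D2:**
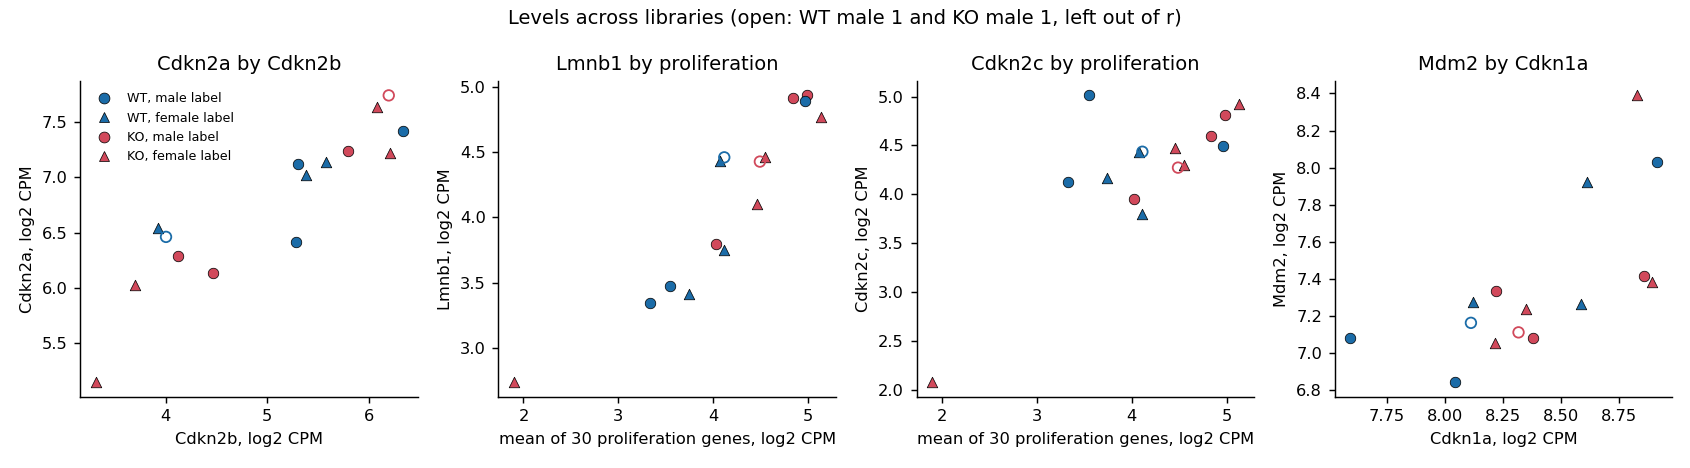
Log2 CPM in each library of *Cdkn2a* against *Cdkn2b*, *Lmnb1* and *Cdkn2c* against the mean of 30 proliferation genes, and *Mdm2* against *Cdkn1a*, in the colours and shapes of the plot of CPM by library, with open circles for the 2 libraries left out of r. *Cdkn2a* and *Cdkn2b* form 1 rising band over both genotypes, as do *Lmnb1* and proliferation, while for *Cdkn2c* a single point, TauT-/- female 4, lies far from the rest.

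**Figure D3:**
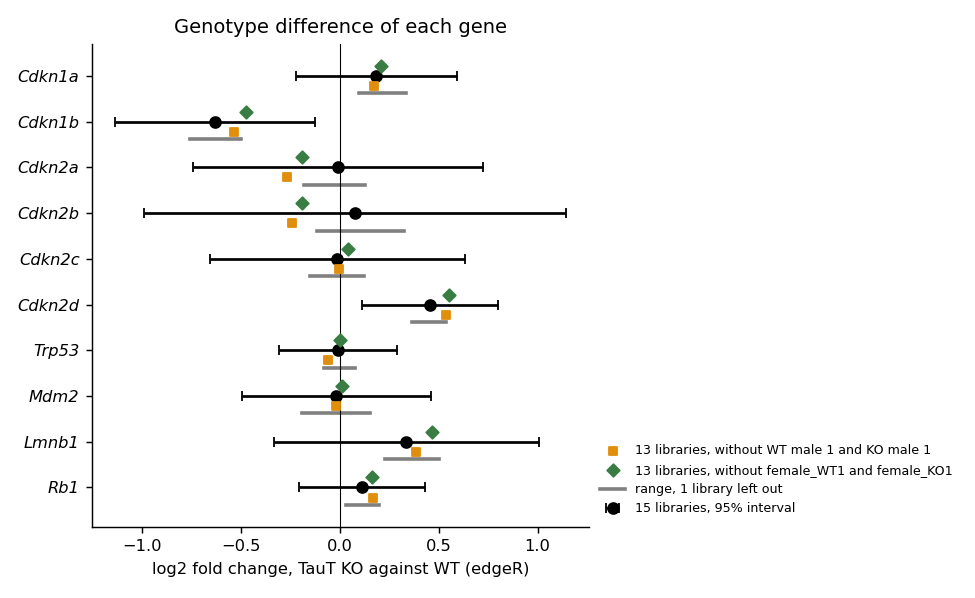
Log2 fold change of TauT-/- against TauT+/+ MSCs for each gene from 15 libraries with its unadjusted 95% interval (black), from both sets of 13 libraries (orange squares and green diamonds) and over the fits that leave out 1 library (grey range). Only the intervals of *Cdkn1b* and *Cdkn2d* exclude 0, while *Cdkn2b* moves from the right to the left of 0 in both 13-library fits.

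Of 16 tested Polycomb proteins and other regulators of the Ink4 locus, 7 were above and 9 below 0, with a median of −0.11. edgeR called 0, with 2 higher and 3 lower at an unadjusted p under 0.05, beside 23.6% of all genes in either direction. DESeq2 called 1 and voom 2, both lower, beside 11.6% and 7.67% of all genes in either direction. *Cbx8*, a chromatin-binding subunit of Polycomb repressive complex PRC1, had a log2 fold change of −0.57 (SE 0.14, adjusted p = 0.0561 by edgeR). *Ets1*, a factor that can turn on p16, had −0.37 (adjusted p = 0.125), and *Suz12*, a core subunit of PRC2, had 0.49 (adjusted p = 0.154).

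Secreted factors of senescent cells showed no common direction. Of 31 tested, 16 were above and 15 below 0, with a median of 0.24, −0.029 without TauT-/- female 4 and −0.48 with the macrophage markers in the model. Over all genes and both directions, 23.6% had an unadjusted p under 0.05, DESeq2 called 11.6% and voom 7.67%. Of the secreted factors edgeR called 0, with 3 higher and 1 lower at an unadjusted p under 0.05. DESeq2 called 2 higher and 1 lower, and voom 3 higher and 1 lower. The smallest p were those of *Mmp12*, a macrophage elastase (2.39, adjusted p = 0.0740), *Igfbp4*, a binding protein of insulin-like growth factors (−2.24, adjusted p = 0.0831), and *Plat*, a plasminogen activator (0.85, adjusted p = 0.116). *Mmp12* ranged over 32.6 to 159.8 CPM in TauT+/+ and 43.5 to 1969.6 CPM in TauT-/- libraries, and *Igfbp4* over 768 to 7629 CPM and 76.5 to 1432 CPM.

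*Glb1*, the lysosomal β-galactosidase whose activity is stained in senescent cells, was higher in TauT-/- MSCs. It had 80.1, 96.8, 99.4 and 90.1 CPM in TauT+/+ male-labelled and 83.2, 78.5 and 85.8 in TauT+/+ female-labelled libraries, and 149.5, 99.01, 126 and 143 in TauT-/- male-labelled and 147, 109, 131 and 132 in TauT-/- female-labelled ones. The genotypes met only where TauT-/- male 2 lay just below TauT+/+ male 3. The highest values, in TauT-/- male 1 and female 1, are those of a near-identical pair, which may not be separate cultures. Means were 87.7 ± 8.07 CPM (SD, n = 7) and 129.6 ± 17.97 CPM (SD, n = 8), which gave a log2 fold change of 0.57 (SE 0.10, adjusted p = 0.0293 by edgeR), called in 9 of 15 fits that leave out 1 library and in neither 13-library fit (adjusted p = 0.0771 and 0.0941). Of the 10 lysosomal genes tested, 9 were above 0 with a median of 0.53. edgeR called *Glb1* alone, with 8 higher at an unadjusted p under 0.05, and DESeq2 and voom each called 6 higher. Over all genes, 1830 of 17204 were higher at that p, DESeq2 called 951 of 18045 higher and voom 611 of 17204. Both *Glb1* and *Pcna* lost their call without TauT-/- female 3 or male 4, or without TauT+/+ female 1, 2 or 3 or male 2, with adjusted p up to 0.0826 and 0.0840.

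Markers of macrophages, which have many lysosomes and can remain in cultures of bone marrow, lay above 0 as well. Over all genes 48.3% were above 0 and 23.6% had an unadjusted p under 0.05 in either direction, while DESeq2 called 11.6% and voom 7.67%. Of 20 macrophage markers, 19 were above 0 and 17 of them at an unadjusted p under 0.05, with a median log2 fold change of 0.94. edgeR called *Cd68*, a lysosomal membrane protein (1.46, adjusted p = 0.0445), and *Ctss*, a lysosomal protease (2.07, adjusted p = 0.0467), both higher, while DESeq2 called 11 and voom 10, all higher. The 13-library fits called neither (*Cd68* adjusted p = 0.0718 and 0.0974, *Ctss* 0.0771 and 0.0974), and of the 15 fits that leave out 1 library *Cd68* was called in 3, those without TauT-/- female 1, TauT+/+ male 1 and TauT+/+ male 3, and *Ctss* in 2, those without TauT-/- female 1 and TauT+/+ male 3 (highest adjusted p = 0.107 and 0.115). Their summed level was 1646 to 11062 CPM in TauT+/+ and 8077 to 27826 CPM in TauT-/- libraries, lowest in TauT+/+ male 2 and highest in TauT-/- female 4. The most abundant, *Lyz2*, ranged over 723 to 6001 CPM and 2967 to 11523 CPM. *Ptprc*, which encodes CD45, a protein the enriched cells were chosen to lack, had 27.9 to 179 CPM in TauT+/+ and 114 to 369.6 CPM in TauT-/- libraries, and none of the 20 markers was at 0 in any library. In bulk samples more cells of a type cannot be told apart from more RNA per cell. The mean log2 CPM of these markers went with genotype. It ran from 5.12 to 7.85 in TauT+/+ libraries, and only male 1 and female 1 of the TauT-/- libraries (7.54 and 7.60) lay below 7.85. A fit with this mean as a covariate therefore cannot tell it apart from genotype, and calls can be lost for that reason alone. In that fit edgeR called 0 of 17204 genes (1706 had an unadjusted p under 0.05). The log2 fold changes were 0.66 for *Glb1*, 0.41 for *Pcna* and 0.79 for *E2f2* (adjusted p = 0.165, 0.294 and 0.375). In the same fit *Cdkn1b* had −0.59 (adjusted p = 0.569) and *Cdkn2d* 0.44 (adjusted p = 0.522).

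Stromal markers lay below 0 in 12 of 16 genes, with a median of −0.57. Over all genes and both directions, 23.6% had an unadjusted p under 0.05, DESeq2 called 11.6% and voom 7.67%. Of the stromal markers edgeR called 0, with 1 higher and 4 lower at an unadjusted p under 0.05. DESeq2 called 2 of them lower and voom 1 higher and 3 lower. *Vcam1*, *Pdgfra* and *Pdgfrb* had the smallest p (log2 fold change −1.90, −1.45 and −0.59, adjusted p = 0.0646, 0.108 and 0.108). Their summed level was 35447 to 52461 CPM in TauT+/+ and 7594 to 48496 CPM in TauT-/- libraries, with TauT-/- female 4 at the low end, and the collagen gene *Col1a1* was the most abundant (9769 to 16589 CPM and 2323 to 22911 CPM). *Lepr*, a defining marker of stromal cells in fresh marrow, was at most 2.35 CPM. Endothelial markers were low, with *Vwf* the most abundant (at most 73.1 CPM, in TauT-/- female 4, log2 fold change 1.32, adjusted p = 0.178), *Cdh5* at most 0.699 CPM and *Pecam1*, which encodes CD31, at most 6.46 CPM. Of 7 tested, edgeR called 0, with 2 higher at an unadjusted p under 0.05, and DESeq2 and voom each called 1 higher. Of these 7, 5 were above 0, among them *Kdr*, a receptor of VEGF (2.14, adjusted p = 0.0561), while *Egfl7* had −0.16 (adjusted p = 0.729). Of 12 erythroid and granulocyte markers, 10 were under 1 CPM in every library, and *S100a8* and *Prtn3*, the only ones tested, were called by neither edgeR, DESeq2 nor voom nor at an unadjusted p under 0.05 and had 1.49 and −0.87 (adjusted p = 0.505 and 0.370).

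**Figure D4:**
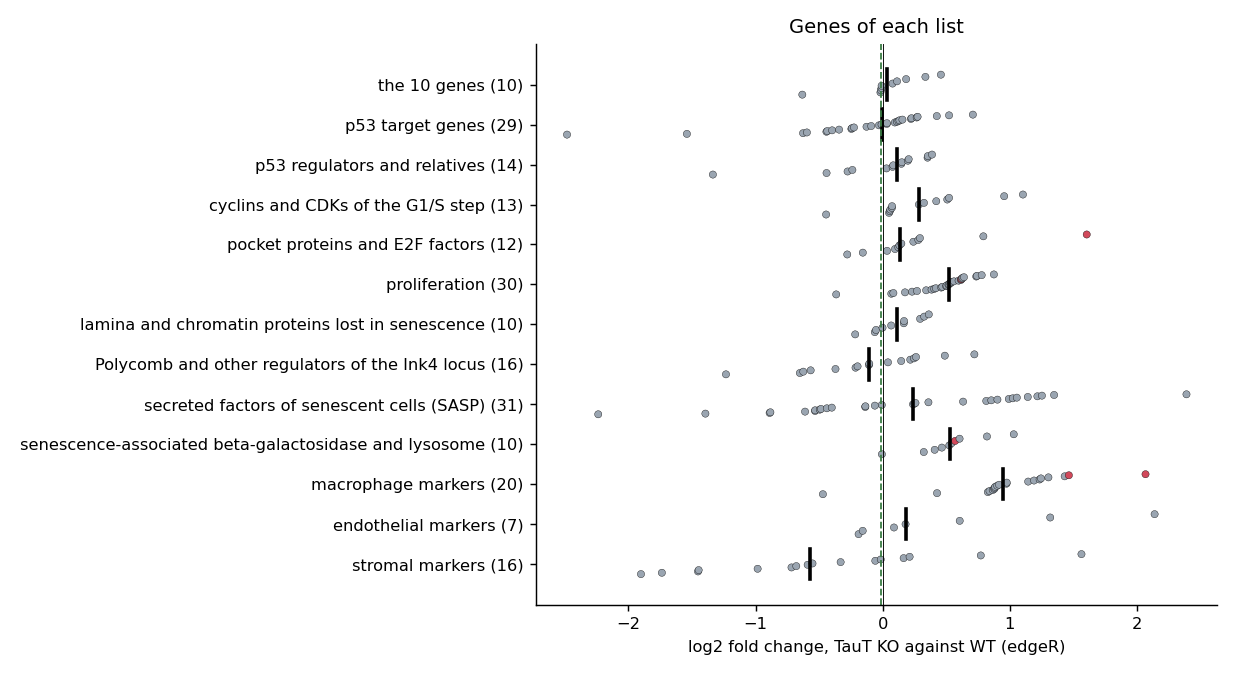
Log2 fold change of TauT-/- against TauT+/+ MSCs for each tested gene of each list (points, with those past an edgeR adjusted p of 0.05 in red), the median of the list (black bar) and the median of all genes tested (green dashed line), with the number of genes tested in brackets. The medians run from −0.57 for stromal to 0.94 for macrophage markers, and that of the 10 genes is 0.035.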

How the data were processed

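The authors made cDNA from 1 ng of RNA per sample with a SMART-Seq kit, trimmed reads with fastp (0.23.1), aligned them with STAR (2.7.9a) and counted reads per gene by strand with featureCounts of Subread (2.0.1). The authors deposited raw counts of reads in each gene for 15 libraries, from 12761107 to 101575071 per library. Labels gave genotype and sex.

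The 10 genes and 13 gene lists were chosen with earlier results of these data known. Counts of 17204 genes kept by edgeR's filter (edgeR 4.0.16, limma 3.58.1, R 4.3.3) were fitted with labelled sex and genotype, TMM scaling, the quasi-likelihood test and Benjamini-Hochberg adjustment over all genes tested, called at an adjusted p under 0.05. The common coefficient of variation between libraries was 0.482. Every adjusted p of a log2 fold change is edgeR's unless DESeq2 or voom is named. Tests by label used 1 term per group. Of each list the genes called (at most 6), or else the 3 with the smallest p, were named, with the most abundant gene of each marker list. *Ptprc*, *Lepr*, *Cdh5* and *Pecam1* were added after their values were seen. Relations used log2 CPM with a prior count of 2 and two-sided permutation tests with 100000 resamples (SciPy 1.17.1, Python 3.11.15), exact within labels. DESeq2 (1.42.0), other scalings, filters, covariates and sets of libraries were alternatives. The fits were also run on simulated counts of independent libraries. That simulation held no near-identical pairs or outlying library, so it cannot say how the fits handle those. Positions, sequences and canonical transcripts are from GRCm39 with its GENCODE annotation, the build the counts were made on.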

Additional observations from a re-analysis of the deposited data

Results flagged for a closer look

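Within each group of 4 libraries (TauT+/+ male, TauT-/- male and TauT-/- female), the 10 genes and the mean log2 CPM of each of the 13 lists were searched for a single library far from the other 3, by the gap to the nearest library as a share of the whole range, on the log2 CPM scale, against Dixon's 95% critical value. Of 69 groups of values 4 passed, where chance gives about 3.5. *Cdkn1b* was low in TauT+/+ male 3, at 40.7 CPM beside 111, 119 and 126 CPM (0.892 of the range). *Rb1* was low in TauT-/- male 1, at 29.9 CPM beside 35.9 to 37.1 CPM (0.856). The mean of the secreted factors was high in TauT-/- male 3, at 5.63 beside 4.23 to 4.45 (0.846). The mean of the stromal markers was low in TauT-/- female 4, at 6.30 beside 7.78 to 7.84 (0.962).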

How the results depend on the processing

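Over all genes, edgeR called 223 and DESeq2 2090, voom 1319, edgeR without a filter 74 and without a sex term 446. It called 0 in male-labelled libraries alone, in female-labelled libraries alone, with the macrophage covariate and in 12 libraries, without TauT+/+ male 1 and female 3 and TauT-/- male 1 (1278, 2014, 1706 and 3115 at an unadjusted p under 0.05). It called 2 and 7 in the 13-library fits without the male-labelled and without the female-labelled members of the near-identical pairs, and from 12 to 1255 with 1 library left out (1255 without TauT+/+ male 3, 12 without TauT+/+ female 2). The cause of these differences was not tested. In the fit with 1 term per group, neither edgeR nor DESeq2 called any of the 10. Of the 10 genes, voom called 1 lower, DESeq2 1 higher, and fits with 1 library left out 0 to 1 lower. With 1 library left out, r of *Cdkn1a* and the p53 targets ran from 0.495 to 0.636 and r of *Cdkn2c* and the proliferation genes from 0.414, without TauT-/- female 4, to 0.919, without TauT+/+ male 2. The relations of *Mdm2* with *Cdkn1a*, *Cdkn2a* with *Cdkn2b* and *Lmnb1* with the proliferation genes stayed past the threshold in all alternatives that held both labels.

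Among 290 alternative values of the 10 genes 227 kept their direction and side of the threshold, 3 passed it and 60 changed sign, none of the latter past it. The log2 fold change changed sign for *Cdkn1a* with the macrophage covariate (−0.066), for *Rb1* in male-labelled libraries alone (−0.027), and for *Cdkn2a* without a filter (0.0050), with the replicate block (0.017), in male-labelled libraries alone (0.095) and with the covariate (0.20). It changed sign for *Cdkn2b* in male-labelled libraries alone (−0.051), in both 13-library fits (−0.24 and −0.19) and in 12 libraries (−0.15). *Cdkn2c* changed with the block (0.11), in female-labelled libraries alone (0.12), under voom (0.095), with the covariate (0.25) and in the second 13-library fit (0.043). *Trp53* changed under DESeq2 (0.0016), with its size factors (0.00051), without a filter (0.0034), with the block (0.069), in male-labelled libraries alone (0.23), in the second 13-library fit (0.0023) and in 12 libraries (0.045). *Mdm2* changed without a sex term (0.013), in female-labelled libraries alone (0.12), in the second 13-library fit (0.012) and in 12 libraries (0.13). With 1 library left out, values ran from −0.18 to 0.12 for *Cdkn2a*, −0.11 to 0.32 for *Cdkn2b*, −0.15 to 0.12 for *Cdkn2c*, −0.081 to 0.077 for *Trp53*, −0.19 to 0.15 for *Mdm2* and −0.23 to 2.56 for *S100a8*. Of 976 alternative values of named list genes, 833 kept direction and side, 50 passed the threshold, 89 lost it and 4 changed sign, among them *Lyz2* (−0.17) and *S100a8* (−0.89) with the covariate and *Egfl7* in female-labelled libraries alone (0.14).

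Libraries of a label that share a replicate number were compared for pairing. The correlation of their deviations from group means was 0.28, 0.22, 0.62 and 0.19 for male and 0.28, 0.072 and −0.040 for female numbers, above 0.1 in all 4 male but 1 of 3 female pairs, and 11 of 14 libraries were closest to their own number. No source says what a number marks, so the numbers were not taken to pair the libraries. With the number as a replicate block edgeR called 259 genes, 177 lower and 82 higher, and none of the 10 (*Cdkn1b* −0.65, adjusted p = 0.0748, *Lmnb1* 0.52, adjusted p = 0.143). Intervals and tests cover the spread between these libraries. The intervals are unadjusted and are not a limit of detection. Those of *Cdkn1b* and *Cdkn2d* excluded 0, and neither gene was called in the main fit (edgeR adjusted p = 0.131 and 0.114). The smallest change that 7 and 8 libraries can detect was not computed.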
